A study of Mus musculus with 8 samples.

Results

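The angiomotins and the Hippo pathway genes were followed in mouse AtT-20 cells, a pituitary corticotrope cell line that makes the hormone precursor Pomc, as an introduced ER-Pax7 was activated by tamoxifen. The 10 genes, of 55401 in the files, were picked by name: the angiomotins Amotl2, Amotl1 and Amot, the coactivator genes Yap1 and Wwtr1, the transcription factor genes Tead1, Tead2, Tead3 and Tead4, and the kinase gene Lats2. Amotl2 was picked because its level was higher after tamoxifen, so its levels are given as a description with no test. The others were included as its relatives or pathway partners. RNA was sequenced from 8 libraries, 2 each at 0, 24, 48 and 72 h of tamoxifen. All 8 carry ER-Pax7, a form of the pioneer transcription factor Pax7 that tamoxifen switches on, and the 0 h libraries are the untreated state of the same line. Cells without ER-Pax7, or given vehicle for matched times, were not analysed here, so ER-Pax7 activation, tamoxifen itself and hours in culture cannot be told apart. The labels do not say whether the line is 1 clone, nor whether the 2 libraries of a time came from different dishes. The spread behind each p-value is therefore that of these libraries alone and may be technical.

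The Hippo pathway is a kinase cascade that holds back the coactivators Yap (gene Yap1) and Taz (gene Wwtr1). Lats kinases, themselves switched on by the Mst kinases, phosphorylate Yap and Taz and keep them out of the nucleus. There they would bind TEAD factors and turn on target genes. Angiomotins are scaffold proteins of cell junctions and the actin cytoskeleton that bind Yap and Taz and also activate Lats kinases. Amotl2 and Lats2 are themselves well-known targets of Yap, Taz and TEAD, and so part of the pathway's feedback.

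Each gene has 1 value per library, a normalized signal read as the mean coverage of its merged exons, so levels can be set beside each other per base of exon. Summed signal was 164236 to 178548 per library, and the read depth is not given. Of the 6 corticotrope markers listed, 5 reached a signal of 1, with Pomc at up to 679, while Crhr1, the receptor for the hypothalamic hormone that drives corticotropes, ranged from 0.0354 to 0.129. Most fibroblast, endothelial and immune markers were low: of 7 in each list, 6, 6 and 5 stayed under 0.1 in every library. At 0 throughout were 2, 1 and 1 of them. The exceptions were Col1a1, Vwf, Csf1r and Cd68, which reached 0.537, 0.350, 0.563 and 0.166. Col1a1, Vwf and Csf1r thus reached higher than Amot (0.284 at most). The summed signals of these lists were 0.233 to 0.555, 0.267 to 0.432 and 0.579 to 0.757. The mean sums at 0 and 72 h were 0.464 and 0.376 for fibroblast, 0.279 and 0.370 for endothelial and 0.596 and 0.718 for immune markers, and their part in the results was not tested. One 72 h library, replicate 2, stood apart in the mitochondrial ribosomal RNA mt-Rnr1, at 25.1 against 1.14 to 5.97 in the others. In a bulk sample, fewer cells expressing a gene and less RNA per cell cannot be told apart.

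Tead1 and Amotl2, with mean signals of 3.22 and 1.64, were the only listed genes that reached a mean of 1. Tead1 lay above 89.5% of the genes with any signal and Amotl2 above 81.1%. Amot and Tead4 followed at 0.238 and 0.197, with library values that overlapped, and Amotl1 came next at 0.0887. Tead2 at 0.0139 and Tead3 at 0.00569 overlapped each other, and Wwtr1 (0.00162), Lats2 and Yap1 lay at the bottom, with overlapping values. In the plot of each gene by library, Tead1 and Amotl2 stand apart from the other members, and Amotl2 was below Tead1 throughout.

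**Figure D1:**
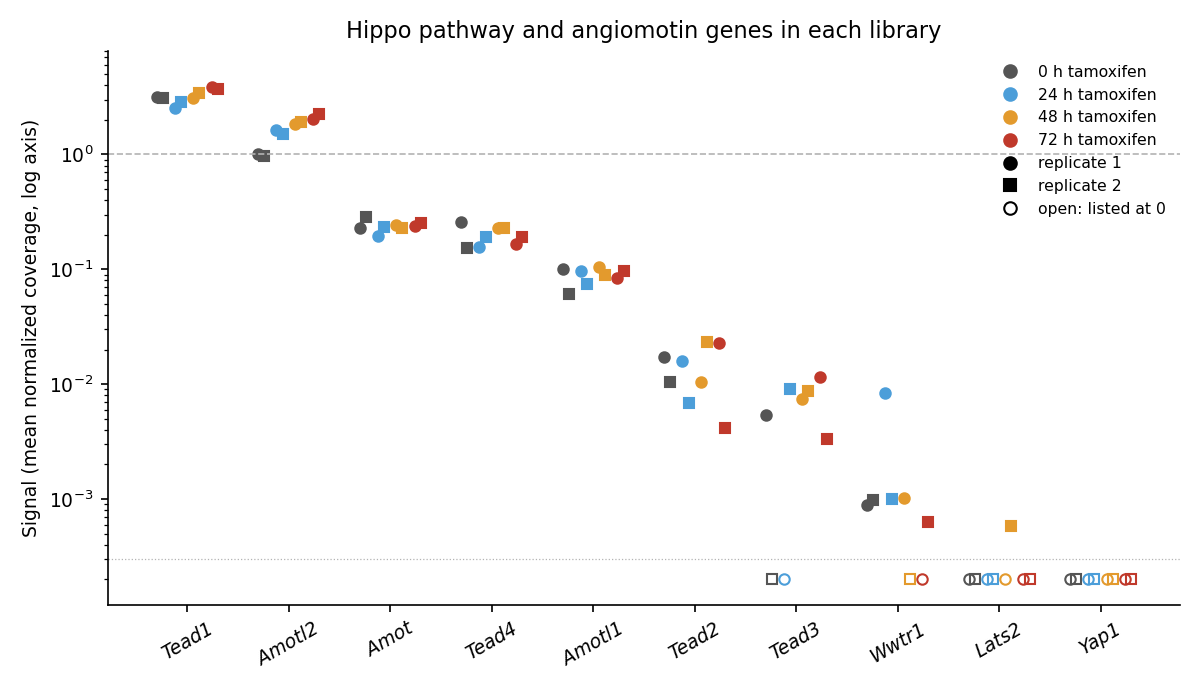
Signal of the 10 listed genes in each of the 8 libraries on a log axis, ordered by mean, with colours for hours of tamoxifen, circles and squares for replicates 1 and 2, open symbols for values listed at 0, and a dashed line at a signal of 1. Tead1 and Amotl2 lie near or above 1 in every library, Amot, Tead4 and Amotl1 between 0.0613 and 0.284, and Yap1 is at 0 in all 8.

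Amotl2 (ENSMUSG00000032531.15, chromosome 9, 102716672 to 102733418, plus strand, GRCm38) codes for a junctional scaffold that binds Yap and links cadherin contacts to actin. None of its 6289 exonic bases lies inside another gene in the files. Its signal was 1.01 and 0.961 in the 0 h libraries, 1.64 and 1.50 at 24 h, 1.83 and 1.92 at 48 h, and 2.04 and 2.25 at 72 h. Every library of a later time lay above both libraries of the time before, with no overlap between any neighbouring groups. At 72 h, 27.4% of the 9606 genes with a mean of at least 1 had both libraries above both 0 h libraries. How many genes were ordered at every step was not counted. The Amotl2 means were 0.983 ± 0.0314, 1.57 ± 0.0980, 1.87 ± 0.0666 and 2.15 ± 0.150 (SD, n = 2 each). They amount to 1.60-fold, 1.91-fold and 2.18-fold of the 0 h level.

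The gain was largest in the first day. From 0 to 24 h the mean went up by 0.586 in signal, which is 50.4% of the whole 72 h difference, and then by 0.305 and 0.274 in the following days. The nearest libraries of neighbouring times were 0.495 apart over the first step, 0.188 over the next and 0.120 over the last. On the log2(signal + 1) scale the differences from 0 h were 0.37, 0.54 and 0.67, a scale that understates the change of low genes. By that measure Amotl2 ranked 79th, 61st and 58th from the top of 9606 genes at 24, 48 and 72 h. The median of all genes was 0.01 at 24 h, 0.00 at 48 h and 0.01 at 72 h.

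The start regions of the genes were read next, since Amotl2 is known as a TEAD target. RefSeq windows of GRCm38.p6, each 300 bases long and mostly upstream of an annotated start, were there for 8 of the 10 genes. The TEAD core motif GGAATG was searched on both strands; it occurred in 16.6% of the 27025 genes with a window and in 5 of these 8. The 30 bases around the match are shown for Amotl2 and for 3 genes that lay at or near 0, all 5′ to 3′ along the gene, with the match in capitals (CATTCC is the motif read on the other strand).
Amotl2: ctgaaactctcaCATTCCtggcatagcagc
Yap1: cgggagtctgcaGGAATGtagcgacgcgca
Wwtr1: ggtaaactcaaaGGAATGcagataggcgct
Lats2: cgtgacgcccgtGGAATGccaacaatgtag
The Amotl2 window is chr9:102717727-102717756 (plus strand), that of Yap1 chr9:8004720-8004749, that of Wwtr1 chr3:57576029-57576058 and that of Lats2 chr14:57746102-57746131 (minus strand for these 3). The Amotl2 and Lats2 matches lie inside the gene spans given for these 2 genes in this report. The starts they belong to are thus not the outer ends of those spans. The fifth gene, Tead3, had 4 matches. The shares are not like for like, as Tead3 had 3 windows and Wwtr1 and Lats2 had 2 each, while the 27025 genes had 32851. Matches were found both for Amotl2 and for genes listed at or near 0. Whether a match bears on any of these levels was not tested. Paired homeodomain motifs, TAAT followed by ATTA after 2 or 3 bases of any kind, are a form that Pax factors bind. They occurred in no window of the 8 genes, and in 0.455% (2 bases between) and 0.555% (3 bases) of all genes with a window, on either strand. A match is a run of letters and not a measured binding site.

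The relatives of Amotl2 were lower, and at each time their libraries overlapped those at 0 h. Amot (ENSMUSG00000041688.16, chromosome X, 145446425 to 145505181), the founding angiomotin, had a signal of 0.231 and 0.284 at 0 h, 0.194 and 0.232 at 24 h, 0.245 and 0.229 at 48 h, and 0.236 and 0.255 at 72 h. All 3 later groups overlapped the 0 h libraries. In a limma fit that reached down to a mean signal of 0.1 and used log2(signal + 0.1), its 72 h difference was -0.05 with a 95% interval of -0.37 to 0.27 (adjusted p = 0.927).

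Amotl1 (ENSMUSG00000013076.17, chromosome 9, 14541966 to 14645056), a tight junction angiomotin, was at 0.101 and 0.0613 at 0 h, 0.0976 and 0.0744 at 24 h, 0.105 and 0.0901 at 48 h, and 0.0838 and 0.0967 at 72 h. Here too each later group overlapped the 0 h libraries. It lay below both low limits and was fitted only with no filter, where limma gave a 72 h difference of 0.01 in log2(signal + 1), with an interval of -0.04 to 0.07 (adjusted p = 0.948). Whether the difference in course between Amotl2 and its relatives exceeds the spread was not tested, because Amotl2 was picked for its course.

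Among the summed signal of the 3 angiomotins, Amotl2 made up 75.2% and 73.5% in the 0 h libraries and 86.5% in both 72 h libraries. Per base of exon, Amotl2 stood 3.87 ± 0.688 times above Amot at 0 h and 8.75 ± 0.148 times at 72 h (SD, n = 2 each). The summed angiomotin signal was 1.34 and 1.31 at 0 h and 2.36 and 2.61 at 72 h. The larger total at 72 h thus lay in Amotl2, as Amot and Amotl1 overlapped their 0 h values.

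**Figure D2:**
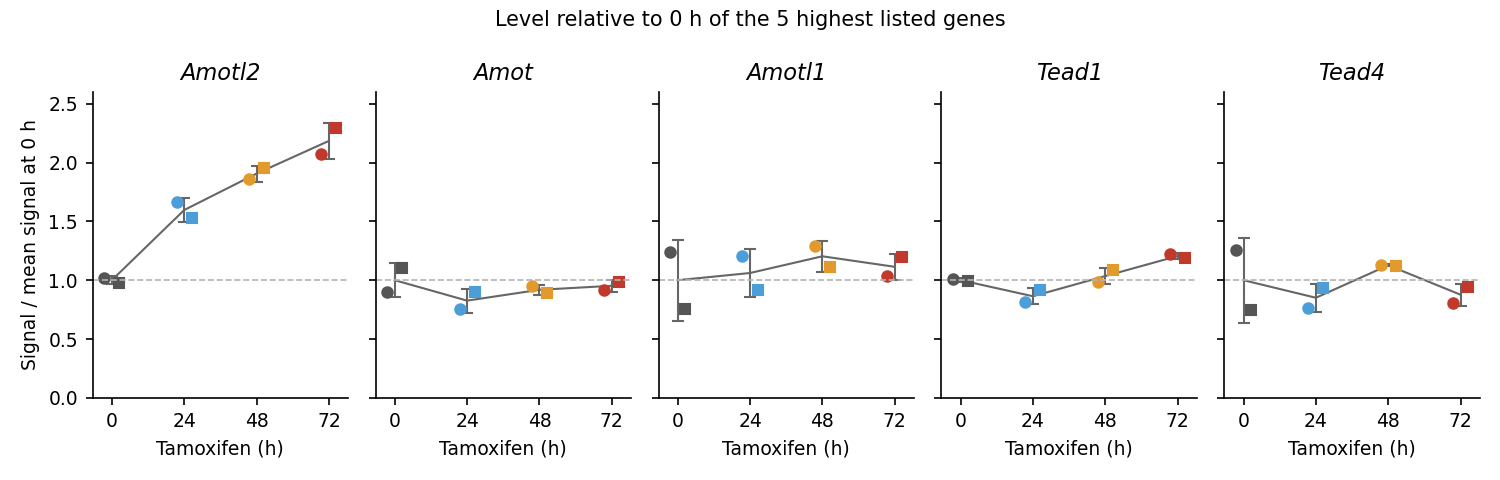
Signal of Amotl2, Amot, Amotl1, Tead1 and Tead4 divided by the gene's own mean at 0 h, against hours of tamoxifen, with lines through the group means, bars of 1 SD (n = 2) and each library as a circle (replicate 1) or square (replicate 2). Amotl2 reaches 2.18 times its 0 h mean at 72 h, while the 72 h means of the other 4 genes lie between 0.876 and 1.21 times theirs.

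The coactivators that angiomotins bind were at or near 0. Yap1 (ENSMUSG00000053110.13, chromosome 9, 7931999 to 8004596) was listed at 0 in all 8 libraries. Wwtr1 (ENSMUSG00000027803.14, chromosome 3, 57455649 to 57575910), the gene for Taz, was listed at 0.000896 and 0.000985 at 0 h, 0.00840 and 0.00100 at 24 h, 0.00102 and 0 at 48 h, and 0 and 0.000632 at 72 h. The highest of these came from 24 h replicate 1, and the other 7 libraries held 0.00102 or less. A listed 0 was common: 17726 of the 55401 genes were at 0 in all 8 libraries, and 23627 to 25307 in any 1 library. For comparison, 12 genes used by most cells, among them Actb, Gapdh and Tbp, had no value under 1.20 in any library. Genes picked as widely used cannot tell whether the 0 of Yap1 is an absence of RNA or a signal that was missed. With Wwtr1 and Yap1 this low, no fold is given, and limma with no filter gave adjusted p-values of 0.774, 1 and 1 for Wwtr1 over the 3 times.

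Lats2 (ENSMUSG00000021959.16, chromosome 14, 57689662 to 57758388), the kinase gene that Yap and Taz induce, was listed at 0 in 7 libraries and at 0.000580 in 48 h replicate 2. Of its exonic bases 42.4% lie inside exons of Gm49361 on the same strand, which was itself at 0.243 to 0.351. Counting whole gene spans, introns included, 97.0% lie inside another gene. How reads of shared bases were assigned is not given, and whether the overlap lowered the listed Lats2 values was not tested. The other Lats kinase gene, Lats1, was among the better expressed pathway genes. Its signal was 3.56 and 3.47 at 0 h, 3.25 and 3.29 at 24 h, 3.09 and 3.14 at 48 h, and 3.54 and 3.13 at 72 h. The 24 h and 48 h libraries lay below both 0 h libraries and the 72 h libraries overlapped them, and limma gave adjusted p = 0.575, 0.466 and 0.669. Before adjustment the limma p was under 0.05 at 48 h only, as for 10.5% of all 9606 genes at that time.

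Among the TEAD genes, which code for the DNA-binding partners of Yap and Taz, Tead1 held 91.9% to 95.1% of the summed signal in every library. Tead1 (ENSMUSG00000055320.18, chromosome 7, 112679318 to 112906807) was at 3.17 and 3.11 at 0 h, 2.56 and 2.87 at 24 h, 3.10 and 3.41 at 48 h, and 3.84 and 3.73 at 72 h. Both 24 h libraries were below the 0 h libraries and both 72 h libraries above them. Such a gap was common: 42.2%, 46.3% and 49.8% of the 9606 genes had groups that did not overlap with 0 h at 24, 48 and 72 h. The ratio to 0 h was 0.864, 1.04 and 1.21, and limma gave log2 differences of -0.16, 0.04 and 0.21 (SE 0.06; adjusted p = 0.328, 0.896 and 0.145). The 72 h interval ran from 0.07 to 0.35, and the unadjusted p was 0.0315 at 24 h and 0.00944 at 72 h. Tead1 therefore did not pass at any time once adjusted over all genes.

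Tead4 (ENSMUSG00000030353.15, chromosome 6, 128224288 to 128300823), a TEAD factor known from muscle and the trophectoderm, was at 0.256 and 0.152 at 0 h, 0.157 and 0.191 at 24 h, 0.231 and 0.229 at 48 h, and 0.165 and 0.193 at 72 h. Each later group lay within or overlapped the range of the 0 h libraries, and the fit reaching down to 0.1 gave a 72 h difference of -0.11 in log2(signal + 0.1), with an interval of -0.54 to 0.33 (limma adjusted p = 0.873). Tead2 ranged from 0.00414 to 0.0231 and Tead3 from 0 to 0.0115 over the 8 libraries. Relative to Amotl2, the Tead1 signal was 3.19 ± 0.0547 times as high at 0 h and 1.73 ± 0.247, 1.73 ± 0.0554 and 1.77 ± 0.160 times at 24, 48 and 72 h (SD, n = 2 each). As Amotl2 was picked for its rise, this lower ratio is no measure of a change in Tead1. Tead1 itself was at 0.864, 1.04 and 1.21 times its 0 h mean.

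Of the 9 members other than Amotl2, which was not tested, none passed the limma threshold of adjusted p = 0.05 at any time. In the main fit only Tead1 of these 9 had a high enough mean to be tested, and it was called at 0 of 3 times, where 0.229%, 0.552% and 2.01% of all 9606 genes were called at 24, 48 and 72 h. In the fit down to 0.1, 0 of 3 members (Tead1, Tead4 and Amot) were called, against 0.162%, 0.548% and 1.57% of 17871 genes. With no filter 0 of 8 were called, against 0.0106%, 0.0133% and 0.167% of 37675 genes, and Yap1, at 0 throughout, was in no fit. In each of these fits the unadjusted p was under 0.05 for 1 member at 24 h, 0 at 48 h and 1 at 72 h, Tead1 each time. Over all genes the share under 0.05 before adjustment was 13.2%, 10.5% and 15.7% in the main fit, 11.4%, 9.93% and 14.0% in the fit down to 0.1, and 8.41%, 8.02% and 9.96% with no filter.

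The rest of the pathway was read from 6 lists with 107 genes, of which 53 reached a mean of 1 and were tested. Of the 19 core kinases, adaptors and activators, 13 were tested and limma called 0 at any time, with medians of -0.04, -0.02 and -0.05 on the log2(signal + 1) scale at 24, 48 and 72 h. The Mst kinase genes Stk3 and Stk4 were at 1.40 ± 0.0335 and 1.88 ± 0.114 at 0 h and 1.52 ± 0.00529 and 1.91 ± 0.0935 at 72 h. The scaffold gene Sav1, with 25.4% of its exonic bases in exons of its opposite-strand neighbour Atl1, was at 2.57 ± 0.0316 and 2.37 ± 0.155, and the upstream regulator Nf2, the gene for merlin, at 2.65 ± 0.0307 and 2.60 ± 0.0334. Map4k4, a kinase that can stand in for the Mst kinases, and Mob1a, a Lats cofactor, were at 3.69 ± 0.0809 and 2.73 ± 0.128 at 0 h and 3.30 ± 0.0223 and 2.61 ± 0.00453 at 72 h. RNA of the kinase arm was thus present at 0 h, and none of its tested genes passed at a later time.

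Of the 18 inhibitors of the Hippo kinases, which are LIM proteins and the STRIPAK phosphatase complex, 12 were tested and 0 called by limma at any time (medians 0.04, 0.02 and 0.00). The phosphatase subunit genes Ppp2ca and Ppp2r1a were at 10.5 ± 0.196 and 7.47 ± 0.892 at 0 h and 10.7 ± 0.189 and 7.18 ± 0.0640 at 72 h, and the kinase gene Stk25 at 9.13 ± 0.435 and 9.03 ± 0.0880. Of the 26 junction and polarity genes, 12 were tested and 0 called (medians -0.02, -0.02 and 0.00). The junction genes Ctnnb1 and Ctnna1, for the beta and alpha catenins, were at 20.1 ± 1.45 and 5.14 ± 0.164 at 0 h, and Ctnnb1 was at 21.1 ± 0.501 at 72 h. Cdh2, for N-cadherin, was at 3.95 ± 0.194 and 3.45 ± 0.0374 (limma adjusted p = 0.188 at 72 h).

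Of the 18 genes for angiomotin partners, 11 were tested and limma called 0 at any time (medians -0.04, -0.02 and 0.02). The ubiquitin ligase gene Nedd4, whose family marks angiomotins for turnover, was at 22.4 ± 0.542 at 0 h and 23.2 ± 0.673 at 72 h. The 14-3-3 genes Ywhae and Ywhaz were at 51.6 ± 2.70 and 40.2 ± 1.39 at 0 h and 46.8 ± 2.56 and 38.9 ± 0.338 at 72 h. Usp9x, a deubiquitinase that stabilizes angiomotins and was singled out after its values were seen, had the highest 72 h difference of the 53 tested pathway genes. It was at 11.5 and 9.42 at 0 h, 7.77 and 13.1 at 24 h, 15.0 and 9.74 at 48 h, and 17.2 and 14.3 at 72 h. Only the 72 h libraries lay above both 0 h libraries, and the interval of 0.55 in log2(signal + 1) ran from -0.06 to 1.16 (limma adjusted p = 0.365).

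Of the 4 Vgll genes, which code for other cofactors of TEAD, Vgll4 alone was tested, and it was at 1.35 ± 0.0279 at 0 h and 1.17 ± 0.0794 after 72 h, which did not pass (limma adjusted p = 0.347). The other 3 had means under 0.1, and 2 of them were at 0 throughout. Over all 6 lists limma called 0 of 53 genes at 24 h, 0 at 48 h and 1 at 72 h, against 0.229%, 0.552% and 2.01% of all tested genes. An unadjusted p under 0.05 was found for 5, 4 and 4 of the 53, against 13.2%, 10.5% and 15.7% of all tested genes. At 72 h, 10 of the 53 genes had both libraries above the 0 h libraries and 19 had both below, against 27.4% and 22.4% of all tested genes.

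**Figure D3:**
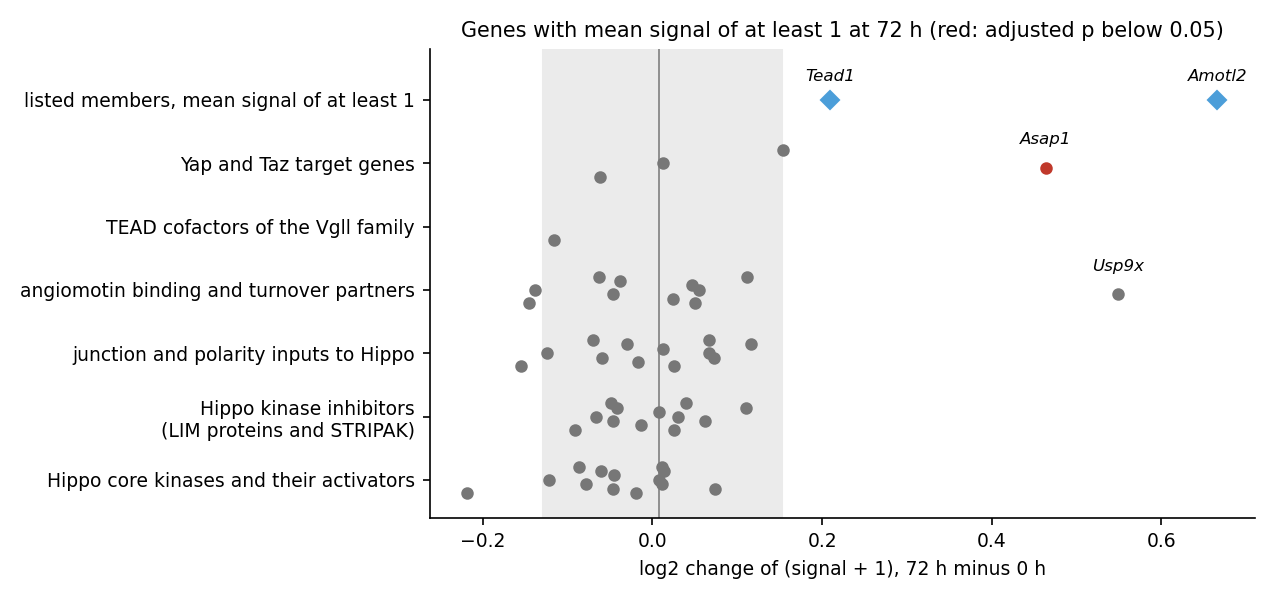
Differences between 72 h and 0 h in log2(signal + 1) for the 53 tested pathway genes, by list, with Tead1 and Amotl2 as diamonds on the top row; the grey band holds the middle 80% of all 9606 genes and the line is their median, 0.01. Asap1, in red, is the pathway gene with an adjusted p below 0.05, Usp9x at 0.55 did not pass, and Amotl2 at 0.67 was not tested.

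The known Yap and Taz targets spanned a wide range of levels. Of 22 listed besides Amotl2 and Lats2, 12 stayed under 0.1 in every library, 8 of them under 0.02 and 3 of those at 0 throughout, and 4 had a mean of at least 1. The targets most used as readouts were among the lowest: Ccn1 was at 0 in 6 libraries and at 0.00213 and 0.00220 in replicate 2 of 48 and 72 h, Ccn2 reached 0.00105 at most, and Ankrd1 was at 0 in 7 libraries and at 0.0129 in 24 h replicate 2. The 2 highest targets were Gadd45a, a DNA damage response gene, at 7.26 ± 0.498 at 0 h and 8.18 ± 0.149 at 72 h, and Birc5, the mitotic survivin gene, at 2.40 ± 0.232 and 2.25 ± 0.127. Neither passed the limma test. At 72 h, 5 of the 22 had both libraries above the 0 h libraries (Asap1, Birc3, Gadd45a, Nuak2 and Dock5) and 3 had both below (Crim1, Nt5e and Rbms3), against 18.2% and 17.7% of the 37675 genes with any signal, a group that holds 19 of the 22.

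Asap1, an Arf GTPase-activating protein gene of focal adhesions, rose and was the 1 pathway gene called by limma at 72 h. It lies on chromosome 15, 64086857 to 64382919, minus strand, and was at 1.01 and 1.25 at 0 h, 1.33 and 1.48 at 24 h, 1.62 and 1.76 at 48 h, and 2.04 and 1.83 at 72 h. Each time's libraries lay above those of the time before, an order whose share over all genes was not counted. The 72 h mean was 1.71-fold of the 0 h mean, with log2(signal + 1) higher by 0.46 (SE 0.07, limma adjusted p = 0.0251), and the 2 earlier times gave limma adjusted p-values of 0.362 and 0.118. The call was lost without 0 h replicate 1 or 2 (limma adjusted p = 0.167 and 0.117), without 48 h replicate 1 or 2 (0.0580 and 0.0584), without 72 h replicate 1 or 2 (0.152 and 0.0957) and with no filter (0.121).

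Birc3, an inhibitor of apoptosis, lay below the main limit and was called at 72 h only in the fit down to 0.1. There limma called 2 of 10 targets, Asap1 and Birc3, both higher. Of all 17871 genes of that fit, 1.57% were called in either direction and 0.996% were called higher. The Birc3 signal was 0.347 and 0.331 at 0 h, 0.357 and 0.405 at 24 h, 0.457 and 0.458 at 48 h, and 0.588 and 0.571 at 72 h. These groups did not overlap from one time to the next, and the share of all genes with such an order was not counted. The 72 h mean was 1.71-fold of that at 0 h (log2(signal + 0.1) higher by 0.63, SE 0.10, limma adjusted p = 0.0314). The call was lost with the replicate number as a block (limma adjusted p = 0.0629), with no filter (0.112), without either 0 h replicate (0.192 and 0.195), either 48 h replicate (0.0736 and 0.0729) or either 72 h replicate (0.181 and 0.166).

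**Figure D4:**
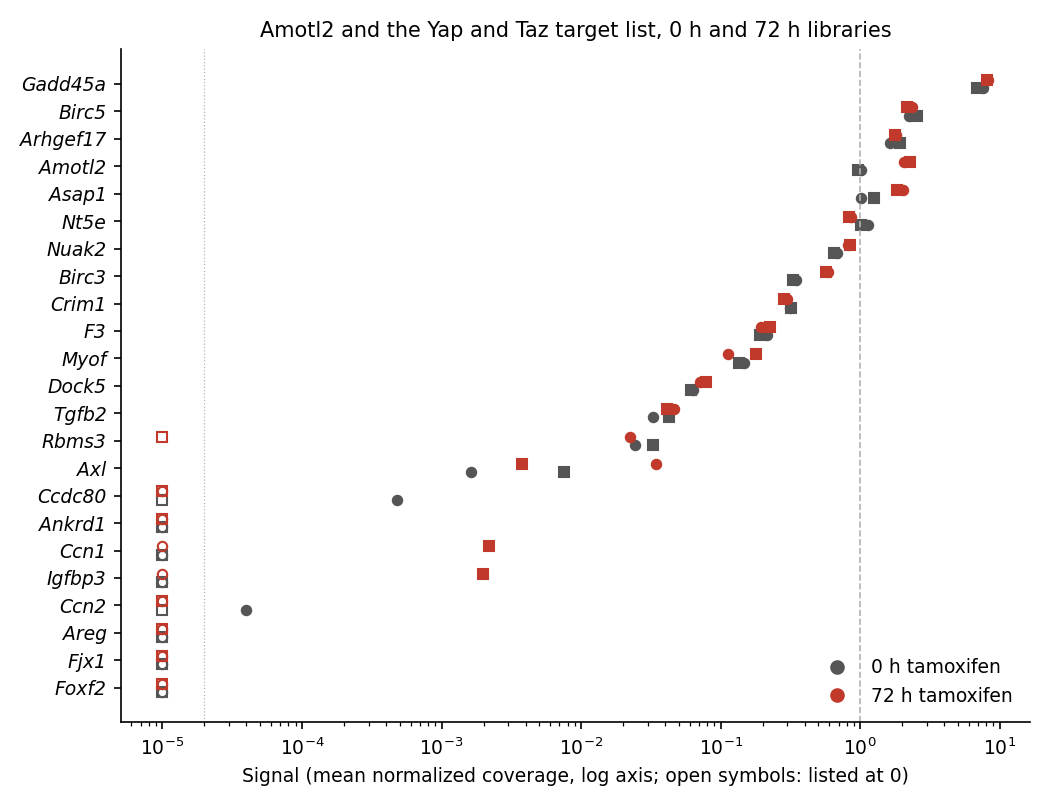
Signal of Amotl2 and the 22 listed Yap and Taz targets in the 0 h (grey) and 72 h (red) libraries on a log axis, with circles and squares for replicates 1 and 2, open symbols at the left edge for values listed at 0, and a dashed line at a signal of 1. Amotl2 and 5 targets (Asap1, Birc3, Gadd45a, Nuak2 and Dock5) have 72 h libraries above both 0 h libraries, 3 targets (Crim1, Nt5e and Rbms3) have them below, and Ccn1, Ccn2 and Ankrd1 lie at or near 0.

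The 5 tested genes whose log2(signal + 1) was most like that of Amotl2 over the 8 libraries were Gstp-ps, Cdcp1, Enpp2, Gnl3l and Tspan15, with Pearson r of 0.99, 0.99, 0.99, 0.98 and 0.98. As a description, 132 of 9604 genes reached r = 0.9, and all points share the same libraries and the same 4 times. Enpp2, for autotaxin, the secreted enzyme that makes lysophosphatidic acid, went from a mean signal of 0.876 at 0 h to 1.60, 1.82 and 2.38. Tspan15, a tetraspanin gene, went from 1.29 to 1.65, 1.87 and 2.05, and Cdcp1, for a surface protein phosphorylated by Src kinases, from 3.97 to 4.41, 4.67 and 4.82. Gnl3l, a nucleolar GTPase gene, went from 7.43 to 7.94, 8.24 and 8.55. Gstp-ps, at 18.3 at 0 h and 26.9 at 72 h, is a pseudogene of the Gstp glutathione transferases, so reads of its near-identical copies may be in its value.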

How the data were processed

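Gene expression was measured by RNA-seq of ribosomal RNA-depleted RNA, per the labels' protocols, in 8 libraries grouped by the time and replicate in their titles. The submitters' processing notes list HISAT2 2.2, SAMtools 1.12 and deepTools 3.5, with mm10 and GRCm38 as genome builds. The deposited values were read as signal, 1 normalized coverage value per gene, per the file headers and the values; their scaling, strand setting and gene models are details not given in the sources used here. Reads of overlapping or antisense neighbours may thus be shared, and no depth or counting interval can be stated. Coordinates are those of the files, written from base 1.

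Genes with a mean of at least 1 (9606) were fitted as log2(signal + 1) in limma 3.58.1 (R 4.3.3) by group with no other term, using an intensity trend, 4 residual degrees of freedom, and Benjamini-Hochberg adjustment over all genes at 0.05. Lower members came from fits that began at a mean of 0.1 with pseudocount 0.1 (17871 genes), or with no filter beyond a signal in 1 library (37675). The fit was also run on simulated data with independent normal noise of the fit's own spread, which does not give its error rates in these libraries. Alternatives were pseudocounts of 0.1 and 0.5, rescaling by median ratios, quantile normalization, a replicate block and each library left out.

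Members and lists were chosen with earlier results of these data known. The genes named were the 10 members, each pathway gene called at any time, the 3 highest tested genes of each list (1 target is not reported here) and the 5 nearest to Amotl2; Stk3, Stk4, Sav1, Nf2, Usp9x, Birc3, Nuak2, Dock5, Crim1, Nt5e, Rbms3, Ccn1, Ccn2 and Ankrd1 were added after their values were seen. The lists were Hippo core kinases, Hippo kinase inhibitors, junction and polarity genes, angiomotin partners, Vgll cofactors, Yap and Taz targets, and corticotrope, fibroblast, endothelial and immune markers.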

Additional observations from a re-analysis of the deposited data

How the results depend on the processing

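Each group had 2 libraries, and the depth is unknown, so how small a difference could be seen for genes near 0 is unknown. Amotl2 was picked for its rise, and its later libraries all lay above those at 0 h. Its differences of 0.37, 0.54 and 0.67 thus kept their direction in all 15 alternatives at each time, which is no test. They became 0.62, 0.87 and 1.05 with a pseudocount of 0.1 and, equally, in the fit down to a mean of 0.1, and 0.48, 0.68 and 0.84 with 0.5. Leaving out 1 library gave 0.33 to 0.41, 0.51 to 0.56 and 0.62 to 0.71. No other member was called in any alternative that kept all 8 libraries, and the Tead1 difference at 72 h was 0.19 to 0.26 in these. That says little for Amotl1, Wwtr1, Tead2, Tead3 and Lats2, which were fitted only with no filter, at signals of 0.105 or less. Lats2 was at 0 in every 0, 24 and 72 h library, so it could not be called at 24 or 72 h. Leaving out 1 library gave a Tead1 difference of 0.19 to 0.23 at 72 h.

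The number of pathway genes called at 72 h was 1, and 0 with no filter, 2 in the fit down to 0.1 and 0 to 1 with a library left out. Over all genes the limma counts were 22, 53 and 193 at 24, 48 and 72 h; with no filter 4, 5 and 63; at 48 h 98 in the fit down to 0.1; and with a library left out 2 to 104, 2 to 95 and 9 to 320. At 48 h the calls were 31 higher and 22 lower, against 22 and 24 with quantile normalization. The labels do not say whether equal replicate numbers mark a shared batch or dish, so the numbers were not used for pairing. Deviations of same-numbered libraries correlated across genes at 0.18 to 0.40 among 0, 24 and 48 h, and at -0.02 to 0.10 between 72 h and the other times. With the replicate number as a block there were 24 calls at 48 h. Of the 2 pathway genes called at 72 h in any main or lower fit, Asap1 stayed called and Birc3 did not.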
